A study of Mus musculus with 15 samples.

Results

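Interferon-stimulated genes were followed in mouse podocytes under mechanical stretch, with the guanylate-binding proteins (GBPs) as their largest family. The 39 genes were chosen by name, as genes that interferon is known to induce and that act in antiviral defence, antigen presentation or interferon signalling. The choice was made with earlier results of these data known, so it was not independent of them. All 39 were found by symbol among the 55416 genes of the count table. The podocyte wraps the glomerular capillary from outside as part of the kidney's filter, and raised capillary pressure stretches it. The cells were of the line SVI, a conditionally immortalised mouse podocyte line, and were differentiated and seeded on flexible silicone membranes in 6-well plates. Experiment 1 held 6 samples at low stretch, labelled with a deflection of 5 to 6 mm, and 3 unstretched samples. Experiment 2 held 3 samples at high stretch, labelled 7 to 8 mm, and 3 unstretched samples of its own. Every sample is of this single line, no sample carries a genotype or drug label, and the duration of stretch is not given in the sources used here. Nothing in the labels says whether the samples of a group were separate cultures, so p-values measure the spread between these samples, which may be technical.

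Interferons bind cell-surface receptors whose JAK kinases activate transcription factors in the cytoplasm. Type I interferon acts mainly at the interferon-stimulated response element (ISRE), bound by a complex that holds STAT2 and IRF9, whereas interferon-gamma acts at the gamma-activated site (GAS). Cells that have met no virus still transcribe many of these genes at a low tonic level, and in the kidney their products have been studied in viral and autoimmune glomerular disease.

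Expression is given as CPM, counts scaled to library size (with TMM factors), over 15 libraries whose totals ran from 172.2 to 396.7 M (megacounts), and levels between genes as TPM, which also accounts for transcript length. Changes are log2 fold changes with their standard error (SE) from edgeR's quasi-likelihood test, adjusted by the Benjamini-Hochberg method over all genes tested in the comparison. A change is called at an adjusted p under 0.05. Of podocyte markers, Ptpro stayed below 0.1 CPM in every group and Nphs1 (nephrin, of the slit diaphragm) averaged between 0.292 and 0.683 CPM in the groups, so both were low in cells labelled podocytes, whereas Synpo, Actn4 and Podxl reached group means of at least 319, 664 and 122 CPM. The 10 podocyte markers summed to between 1205 and 2898 CPM per sample. Of those tested, 3 were lower and 6 higher at low stretch, and none was called. At high stretch 6 were lower and 2 higher, and 1 was called lower. Wt1, a podocyte transcription factor, averaged 5.05 and 2.28 CPM unstretched and at low stretch (adjusted p = 0.0688) and 2.81 and 0.545 CPM in experiment 2 (adjusted p = 0.0311). Of 11 leukocyte markers, Ptprc, Adgre1, Itgam, Tyrobp and Cd3e were among those below 0.1 CPM in every group. The summed leukocyte markers nevertheless ran from 24.3 to 27.2 CPM unstretched and 7.31 to 13.7 CPM at low stretch in experiment 1, and from 24.4 to 26.7 against 6.47 to 10.4 CPM in experiment 2. Most of that sum was Csf1r, the receptor of colony-stimulating factor, with group means of 23.6, 8.31, 24.1 and 5.87 CPM in the same order. Of the leukocyte markers tested, 5 were lower and 1 higher at low stretch, and 3 were lower and 2 higher at high stretch. All high-stretch samples of Cd68 were above their controls (log2 fold change 0.86). The summed tubular markers were nearly all Lrp2 and Cdh16. They ran from 1220.4 to 1628 CPM unstretched and 629.6 to 1007 CPM at low stretch. In experiment 2 they ran from 1289 to 1402 CPM unstretched and from 509 to 589 CPM at high stretch. Of the 3 tested, 2 were lower and 1, Slc12a1, higher at each amplitude (log2 fold changes 0.69 and 0.24). At high stretch Cdh16 changed by -2.09, and Lrp2 by -0.39 with overlap. The summed endothelial markers were nearly all Ehd3, and the others were near or below 0.1 CPM. That sum ran from 44.7 to 46.9 CPM unstretched and 26.8 to 35.5 CPM at low stretch. In experiment 2 it ran from 70.3 to 82.7 against 42.4 to 54.7 CPM. Of the endothelial markers tested, 1 was lower and 2 higher at low stretch (log2 fold change up to 0.70). At high stretch 1 was lower and 1 higher (1.01). The summed mesangial or fibroblast markers, nearly all from a single gene, ran from 1262 to 1999.7 CPM unstretched and 1511 to 3941 CPM at low stretch. In experiment 2 they ran from 2552 to 7227 CPM unstretched and from 6534 to 10490.5 CPM at high stretch. Of the 4 tested, 2 were lower and 2 higher at each amplitude. The part of these cell markers in the results below was not tested.

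Promoter sequence was available for 30 of the 39 genes in RefSeq windows that run from 250 bases before to 50 bases after an annotated start (build GRCm38.p6, an older build than the mm39 named for the reads, so coordinates below are those of the sequence table). Dhx58, Gbp4, Gbp6, Gbp9, Ifi27, Mx1, Mx2, Oas2 and Usp18 had no window. The ISRE core was searched as GAAANNGAAA and the GAS core as TTCNNNGAA, each on both strands. The ISRE core lay in 17 of 35 windows of these genes (48.6%), against 3.44% of all 32851 windows, and the GAS core in 11 of 35 (31.4%), against 8.3%. A match describes letters only, and no binding was measured. The windows below belong to the genes with the largest called changes for which sequence was available, and show the 250 bases before the start, 5′ to 3′ on the gene's strand, with matches in capitals. Isg15 and Irgm1 follow them because they hold the same motif and were not called in either comparison; these 2 were picked after their values were seen.
Gbp2 (chr3:142620413-142620662, plus strand): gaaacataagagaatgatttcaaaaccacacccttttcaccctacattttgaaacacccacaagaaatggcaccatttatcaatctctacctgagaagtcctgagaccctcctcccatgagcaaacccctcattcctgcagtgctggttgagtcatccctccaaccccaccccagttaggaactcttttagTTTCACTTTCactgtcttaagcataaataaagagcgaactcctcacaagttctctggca
Gbp3 (chr3:142559794-142560043, plus strand): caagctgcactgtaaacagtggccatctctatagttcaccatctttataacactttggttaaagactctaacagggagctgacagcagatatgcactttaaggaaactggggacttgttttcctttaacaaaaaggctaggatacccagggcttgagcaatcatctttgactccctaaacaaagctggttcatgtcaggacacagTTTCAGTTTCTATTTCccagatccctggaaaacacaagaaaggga
Ifit1 (chr19:34640639-34640888, plus strand): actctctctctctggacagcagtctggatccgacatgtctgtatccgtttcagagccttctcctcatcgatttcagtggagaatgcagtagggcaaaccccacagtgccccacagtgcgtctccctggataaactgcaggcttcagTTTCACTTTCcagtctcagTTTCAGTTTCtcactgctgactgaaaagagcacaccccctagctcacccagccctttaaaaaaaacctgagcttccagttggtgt
Ifit3 (chr19:34583279-34583528, plus strand): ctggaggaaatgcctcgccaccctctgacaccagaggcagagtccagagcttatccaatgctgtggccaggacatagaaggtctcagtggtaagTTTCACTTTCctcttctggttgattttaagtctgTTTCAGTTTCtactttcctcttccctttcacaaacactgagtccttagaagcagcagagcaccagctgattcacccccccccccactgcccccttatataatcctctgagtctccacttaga
Irf8 (chr8:120736108-120736357, plus strand): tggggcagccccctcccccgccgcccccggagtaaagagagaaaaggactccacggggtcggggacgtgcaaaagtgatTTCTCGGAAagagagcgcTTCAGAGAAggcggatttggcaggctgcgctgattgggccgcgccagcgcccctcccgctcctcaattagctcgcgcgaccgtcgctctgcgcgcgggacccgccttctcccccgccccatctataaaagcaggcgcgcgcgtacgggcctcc
Oasl2 (chr5:114896684-114896933, plus strand): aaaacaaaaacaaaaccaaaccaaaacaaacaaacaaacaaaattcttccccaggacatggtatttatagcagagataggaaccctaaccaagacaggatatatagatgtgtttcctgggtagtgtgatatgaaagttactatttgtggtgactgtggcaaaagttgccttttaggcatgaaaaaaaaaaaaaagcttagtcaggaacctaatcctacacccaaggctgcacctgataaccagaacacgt
Isg15 (chr4:156200819-156201068, minus strand): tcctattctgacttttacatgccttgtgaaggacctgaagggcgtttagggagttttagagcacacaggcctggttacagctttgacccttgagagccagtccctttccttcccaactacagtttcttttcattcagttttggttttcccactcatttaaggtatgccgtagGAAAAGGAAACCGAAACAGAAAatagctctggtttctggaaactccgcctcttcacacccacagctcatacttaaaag
Irgm1 (chr11:48871421-48871670, minus strand): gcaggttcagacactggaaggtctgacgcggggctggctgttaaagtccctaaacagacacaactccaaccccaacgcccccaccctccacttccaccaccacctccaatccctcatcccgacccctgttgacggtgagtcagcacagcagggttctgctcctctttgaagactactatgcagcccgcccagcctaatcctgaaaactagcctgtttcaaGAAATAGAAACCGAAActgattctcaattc
In Gbp2 the ISRE core began 59 bases before the start, and in Gbp3 overlapping cores began 45 and 39 bases before it. Ifit1 and Ifit3 each held 2 separate cores, Isg15 held 3 overlapping ones and Irgm1 2. Irf8 held 2 GAS cores and no ISRE core in the window shown, and Oasl2 held neither motif. Bst2 held overlapping ISRE and GAS matches, the only such overlap among the 35 windows. Of the members with an ISRE core, 13 of the 16 tested were lower at low stretch (median log2 fold change -0.55), and of those with a window but no core, 10 of 11 were lower (median -0.31). At high stretch the counts were 12 of 14 (median -0.86) and 11 of 11 (median -0.63). Of all genes tested, 49% were lower at low stretch and 52.4% at high stretch.

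Most of these interferon-stimulated genes were lower in stretched than in unstretched podocytes, and the GBPs had median log2 fold changes of -1.43 at low and -1.83 at high stretch. At low stretch 34 of the 39 could be tested. Of these, 31 were lower (a log2 fold change below 0), against 49% of all genes tested, and their median log2 fold change was -0.56, where that of all genes was 0.01. In all, 10 of them passed the test and fell, against 3.6% of all genes called lower (5.45% called in either direction): Gbp2, Gbp3, Gbp4, Gbp6, Gbp9, Ddx58, Ifit1, Oasl2, Psmb8 and Tap1. None was called higher (1.85% of all genes were), and 1, B2m, was higher at an unadjusted p under 0.05; DESeq2 also called none higher. In 15 members every low-stretch sample was below every unstretched sample (7.47% of all genes), and in 1, B2m, every one was above (7.81%).

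High stretch was compared with controls of its own. Of 32 members tested, 30 were lower, against 52.4% of all genes, and the median log2 fold change was -0.74 (-0.02 for all genes). The 7 that fell were Gbp2, Gbp3, Gbp4, Gbp6, Irf8, Ifit3 and Oasl2, against 2.16% of all genes called lower and 3.47% called in either direction. None was called higher (1.31% of all genes); Irgm1 was higher at an unadjusted p of 0.00779 and was called higher by DESeq2. The groups did not overlap in 20 members that were lower (10.7% of all genes) and 1 that was higher, Irgm1 (9.97%).

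Of the 32 members tested in both experiments, 29 were lower in both, against 37.4% of the 18403 genes tested in both. Of these, 5 were called lower in both, Gbp2, Gbp3, Gbp4, Gbp6 and Oasl2 (1.17% of all genes). In 12 the groups did not overlap in either experiment (4.22% of all genes): those 5 with Ddx58, Gbp9, Ifit1, Irf8, Irgm2, Psmb8 and Psmb9. The experiments used separate control samples. Fewer cells with a given transcript and less of it per cell cannot be told apart in these bulk libraries.

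**Figure D1:**
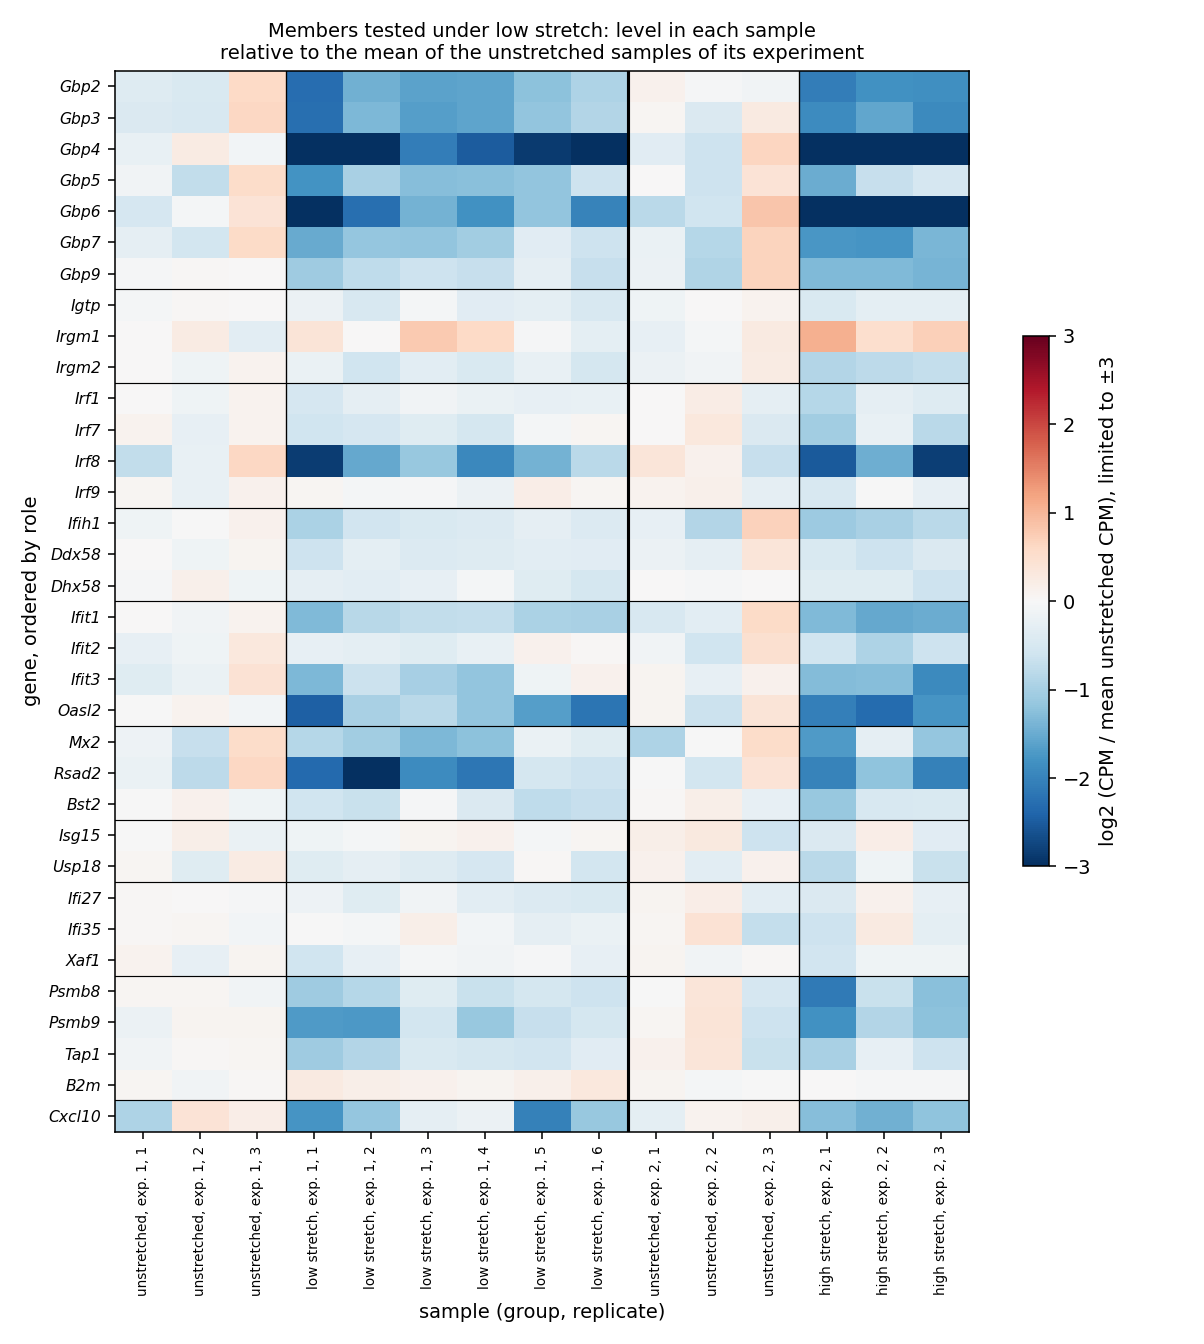
Level of the 34 genes tested at low stretch in each of the 15 samples, as log2 of CPM over the mean unstretched CPM of the same experiment (colour, limited to 3 in either direction), with genes in rows by role and samples in columns by group and replicate. Blue marks levels below the unstretched mean: the GBP rows are blue in all 9 stretched samples, whereas Isg15, Irf9 and B2m stay near white at low stretch and Irgm1 is red in the 3 high-stretch samples.

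The call counts depended on single samples, and the count of lower members did so less. Leaving out 1 sample at a time gave between 1 and 13 called members at low stretch, where between 0.998% and 7.57% of all genes were called, and between 0 and 12 at high stretch, where 0.0755% to 7.77% were. The lowest count at low stretch came without unstretched replicate 3 (1 member), followed by unstretched replicate 1 (4) and low-stretch replicate 4 (5). At high stretch it was 0 without high-stretch replicate 3, 1 without high-stretch replicate 1, 3 without unstretched replicate 1, 4 without high-stretch replicate 2 and 12 without unstretched replicate 3. In those fits the number of lower members was 30 to 32 of 34 at low stretch and 30 to 32 of 32 to 34 tested at high stretch, and the median lay between -0.61 and -0.42 at low stretch and between -0.95 and -0.66 at high stretch. Neighbouring positions of the samples were grouped here into runs, described with the within-run values. In experiment 2 these runs were not shown to pair samples. An adjusted p with the run block is given beside each uncalled result that became a call with it. That block also called more of all genes, 28.2% at low and 8.35% at high stretch. At high stretch it gave the abundant B2m, Irf1, Irf9, Tap1, Irgm1 and Gbp2 the same SE of 0.24. An adjusted p with the run block at high stretch thus reflects little of each gene's own spread.

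The GBPs are large GTPases that interferon-gamma strongly induces; they assemble on the membranes of intracellular pathogens and their vacuoles. All 7 of the family were lower at low stretch, where 49% of all genes were, and 5 were called lower (3.6% of all genes). The 6 tested at high stretch were lower (52.4% of all genes), with 4 called lower (2.16%). Gbp2, Gbp3, Gbp5 and Gbp7 lie in the gene cluster on chromosome 3, and Gbp4, Gbp6 and Gbp9 in the one on chromosome 5. Levels in every sample are plotted for the family.

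**Figure D2:**
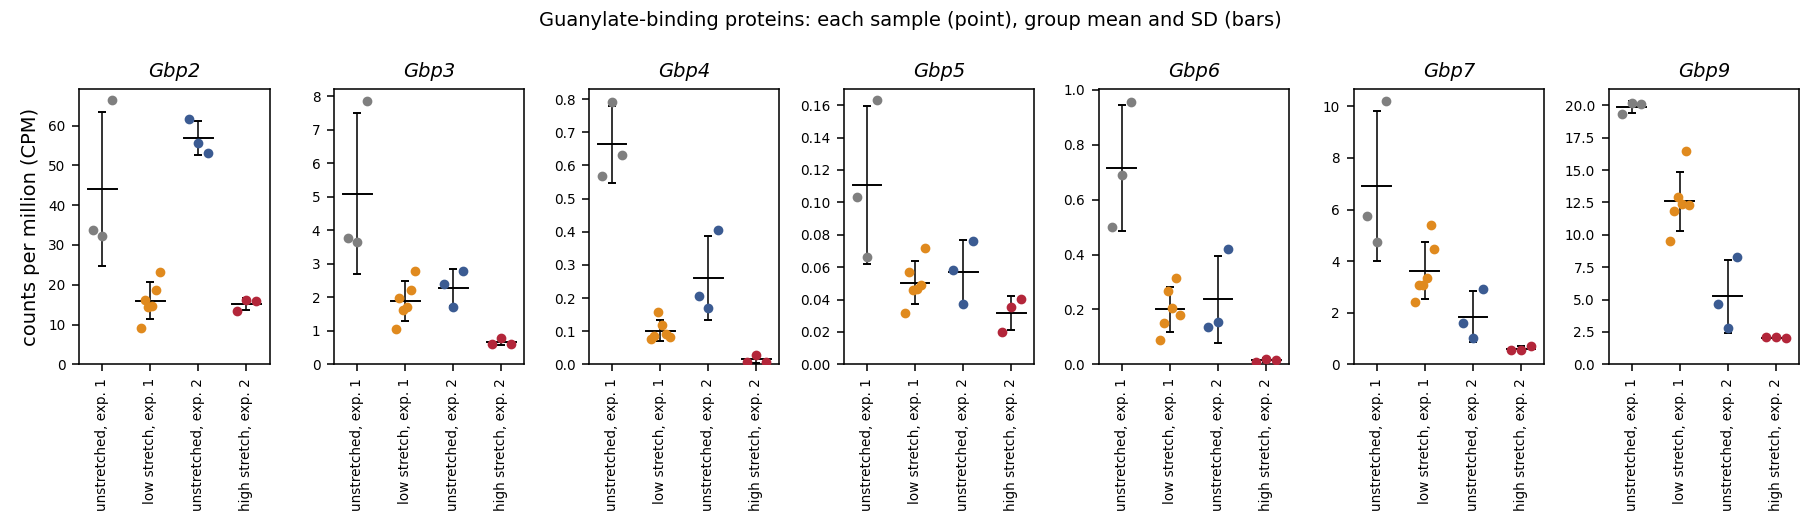
CPM (vertical axis from 0, own scale for each gene) of the 7 guanylate-binding protein genes in each sample (points) of the 4 groups, with the group mean as a line and the SD as a bar. Gbp2 fell from means of 44.1 and 56.9 CPM in the unstretched groups to 16.1 and 15.2 CPM, and Gbp4 from 0.663 and 0.26 to 0.101 and 0.0148 CPM.

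Gbp2, the most abundant GBP by TPM, measured 33.8, 32.2 and 66.4 CPM in the unstretched samples of experiment 1, and from 9.06 to 23.1 CPM (median 15.5) at low stretch. Experiment 2 gave 61.7, 55.7 and 53.2 CPM unstretched and 13.5, 16.2 and 15.9 CPM at high stretch. Unstretched replicate 3 of experiment 1 was far above the other 2 of that experiment, and no stretched sample reached the lowest unstretched one. The log2 fold change was -1.46 ± 0.27 at low stretch (adjusted p = 0.014) and -1.88 ± 0.17 at high stretch (adjusted p = 0.00385). The low-stretch call was lost without that unstretched sample (adjusted p = 0.0851), and the high-stretch call without high-stretch replicate 3 (0.0529).

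Gbp3 ran at 3.78, 3.64 and 7.86 CPM unstretched and from 1.06 to 2.79 CPM (median 1.84) at low stretch. The values were 2.39, 1.7 and 2.78 CPM unstretched and 0.619, 0.773 and 0.609 CPM at high stretch in experiment 2. Again the same unstretched sample was the highest, and the groups did not overlap in either experiment. The log2 fold changes were -1.43 ± 0.30 (adjusted p = 0.0227) and -1.77 ± 0.27 (adjusted p = 0.017). They passed in 7 of 9 and 3 of 6 fits that left out 1 sample, with adjusted p up to 0.146 without unstretched replicate 3 or low-stretch replicate 4, and up to 0.127 without unstretched replicate 1 or high-stretch replicates 1 or 3. From the transcript TPM the high-stretch change of Gbp3 was -1.62 (adjusted p = 0.12).

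The largest fall at both amplitudes was that of Gbp4. It gave 0.567, 0.792 and 0.632 CPM unstretched and from 0.0767 to 0.158 CPM (median 0.0873) at low stretch, a log2 fold change of -2.72 ± 0.24 (adjusted p = 0.00118). This call held in all 9 fits that left out 1 sample. In experiment 2 it gave 0.206, 0.17 and 0.404 CPM unstretched and 0.00809, 0.0284 and 0.00806 CPM at high stretch. Those last values are raw counts of 2, 4 and 2, against 32, 23 and 111. Summed counts of 8 against 166 make the level 23.4-fold lower, with an exact 95% interval from 11.6 to 55 that covers counting error only. The fitted log2 fold change was -4.26 ± 0.62 (adjusted p = 0.0142), and it missed the threshold without high-stretch replicate 1 or 3 (adjusted p up to 0.106). Its size was -4.89 without high-stretch replicate 2 and -3.74 without unstretched replicate 3.

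Gbp6 gave 0.502, 0.689 and 0.957 CPM unstretched and from 0.0895 to 0.316 CPM (median 0.191) at low stretch (log2 fold change -1.84 ± 0.33, adjusted p = 0.0121; 0.0792 without unstretched replicate 3). It gave 0.135, 0.156 and 0.419 CPM unstretched and 0.00809, 0.0213 and 0.0161 CPM at high stretch. Summed counts of 9 against 157 make it 19.6-fold lower (exact 95% interval 10.1 to 43.8, counting error only), and the fitted log2 fold change was -4.01 ± 0.66 (adjusted p = 0.0207; called in 3 of 6 fits that left out 1 sample, lost without any one of the high-stretch samples). Unstretched replicate 3 held 115 of those 157 counts, and without it the log2 fold change was -3.23. Its transcripts share 64.5% of their 100-base windows with other genes, 59% with Gm43302 alone, so reads of the pair could be split either way. Gm43302 itself averaged 0.178 CPM unstretched and 0.0475 CPM at low stretch (log2 fold change -1.90 ± 0.34, adjusted p = 0.0121), and the summed CPM of both genes changed by -1.85 and -4.04 on the log2 scale at low and high stretch. From the transcript TPM the Gbp6 change was -1.49 (adjusted p = 0.0141) at low stretch and -1.10 (adjusted p = 0.22) at high stretch. Those are changes of log2(TPM + 0.1), which understates changes of low genes. Gbp7 shares 10.01% of its windows with other genes, and Gbp2, Gbp3, Gbp4, Gbp5 and Gbp9 at most 1.65%.

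Gbp9 measured 19.3, 20.2 and 20.1 CPM unstretched and from 9.55 to 16.5 CPM (median 12.3) at low stretch, and it fell by 0.67 ± 0.13 on the log2 scale (adjusted p = 0.0187). The call was lost without any one of the 3 unstretched samples (adjusted p up to 0.0856). In experiment 2 it measured 4.64, 2.81 and 8.32 CPM unstretched and 2.11, 2.11 and 2 CPM at high stretch. The groups there did not overlap, and the change of -1.33 ± 0.39 was not called (adjusted p = 0.126; 0.00385 with the run block). It was called without unstretched replicate 2. Gbp7 had log2 fold changes of -0.93 ± 0.27 (adjusted p = 0.0717) and -1.62 ± 0.40 (adjusted p = 0.0743), neither called; with the run block both were (adjusted p of 0.00034 and 0.000275). Gbp5, a GBP that helps inflammasome assembly, averaged 0.111 CPM unstretched and 0.0504 CPM at low stretch (-1.12 ± 0.31, adjusted p = 0.0626; 0.0126 with the run block). It was too low for a test in experiment 2, at 0.058, 0.037 and 0.0764 CPM unstretched and 0.0202, 0.0355 and 0.0403 CPM at high stretch.

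The IRG GTPases, a family that also guards vacuoles of intracellular pathogens, were mixed, with Irgm1 above its controls at high stretch and Irgm2 below its own at both amplitudes. Irgm1, a regulatory member of that family and the most abundant GTPase of the set by TPM, measured 100, 118 and 79.5 CPM unstretched and from 81.2 to 172 CPM (median 114) at low stretch. Its unstretched samples of experiment 2 measured 62.7, 71.5 and 89.6 CPM, and those at high stretch 156, 106 and 122 CPM. Low-stretch samples overlapped with their controls, whereas all high-stretch samples were above theirs. The log2 fold changes were 0.29 ± 0.23 (adjusted p = 0.482) and 0.80 ± 0.23 (adjusted p = 0.12). With the run block, the latter reached an adjusted p of 0.024, and without unstretched replicate 3 of experiment 2 one of 0.0162. Irgm2 changed by -0.39 ± 0.11 (adjusted p = 0.059; 0.0132 with the run block) and -0.78 ± 0.20 (adjusted p = 0.0886; 0.0451 with it). Its groups did not overlap in either experiment, at 12.9, 11.6 and 13.8 CPM against 8.5 to 11.1 CPM (median 9.75) in the first, and at 13.7, 14.4 and 18.2 against 8.38, 8.94 and 9.33 CPM in the second. Igtp, which encodes Irgm3, was lower by smaller amounts (-0.30 ± 0.11 and -0.33 ± 0.19), not called (adjusted p = 0.0337 at low stretch with the run block).

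Among the interferon regulatory factors, transcription factors that bind ISRE-type sites, Irf8 had the largest change at both amplitudes. IRF8 is known mainly from myeloid cells, and its gene was low here: 0.139, 0.199 and 0.357 CPM unstretched and 0.032 to 0.132 CPM (median 0.0833) at low stretch. Experiment 2 held 1.26, 1.07 and 0.604 CPM unstretched and 0.17, 0.355 and 0.137 CPM at high stretch. Stretched samples lay below all their controls in both experiments. The log2 fold change of -1.48 ± 0.39 at low stretch just missed the threshold (adjusted p = 0.0513; 0.0035 with the run block), and that of -2.15 ± 0.44 at high stretch passed it (adjusted p = 0.0417). The latter held in 2 of 6 fits that left out 1 sample, those without unstretched replicate 3 or high-stretch replicate 2, and its adjusted p rose to 0.196 in the others; from the transcript TPM it was -1.53 (adjusted p = 0.0543). Irf1, the early-response factor, measured 20.6, 18.7 and 22.2 CPM unstretched and from 14.4 to 19 CPM (median 17.5) at low stretch, and was not called at either amplitude (-0.26 ± 0.09 and -0.47 ± 0.21; adjusted p of 0.0279 at low stretch with the run block). Irf7, the amplifier of type I interferon, changed by -0.31 ± 0.17 and -0.63 ± 0.30, and Irf9, the DNA-binding partner of STAT2, by 0.01 ± 0.10 and -0.22 ± 0.20; none of these was called.

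Of the cytosolic RNA sensors, Ddx58 (RIG-I) was called at low stretch. It measured 25.6, 23.2 and 26.9 CPM unstretched and from 16.4 to 20.7 CPM (median 19.8) stretched, a log2 fold change of -0.39 ± 0.09 (adjusted p = 0.0284). The call was lost without unstretched replicate 1 or 3 or low-stretch replicate 4 (adjusted p up to 0.157). At high stretch it measured 13.9, 12.4 and 14.3 CPM against 16.9, 15.8 and 24.8 CPM, with no overlap and no call (-0.49 ± 0.24). Ifih1 (MDA5) changed by -0.50 ± 0.14 (adjusted p = 0.0583; 0.00203 with the run block) and -0.95 ± 0.39 (adjusted p = 0.307), and Dhx58 (LGP2), which modulates both sensors, by -0.30 ± 0.15 and -0.42 ± 0.24.

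The IFIT proteins bind viral RNA and block its translation. Ifit1 gave 0.649, 0.598 and 0.689 CPM unstretched and from 0.256 to 0.391 CPM (median 0.348) at low stretch, a log2 fold change of -0.92 ± 0.16 (adjusted p = 0.012). The adjusted p rose to 0.076 without unstretched replicate 1 or 3. The second experiment gave 0.438, 0.489 and 0.914 CPM unstretched and 0.247, 0.213 and 0.218 CPM at high stretch, without overlap and without a call (-1.43 ± 0.36, adjusted p = 0.0799; 0.00669 with the run block). Ifit3 showed the reverse order of calls. At low stretch it ran from 8.69 to 24.2 CPM (median 12.7) against 17.3, 19.3 and 29.7 CPM, which overlapped (-0.59 ± 0.31, adjusted p = 0.281; 0.00747 with the run block), and at high stretch it ran at 5.75, 5.88 and 3.77 CPM against 15.1, 12 and 15.5 CPM (-1.45 ± 0.25, adjusted p = 0.024). That high-stretch call passed in 2 of 6 fits that left out 1 sample and was lost without unstretched replicate 1 or any high-stretch sample (adjusted p up to 0.144); from TPM the change was -1.54 (adjusted p = 0.0796). Ifit3 shares 31.6% of its windows with Ifit3b, whose own log2 fold changes were -0.28 ± 0.33 and -1.40 ± 0.28 (adjusted p = 0.64 and 0.0396), and the summed CPM of the pair changed by -0.50 and -1.46 on the log2 scale. Ifit2 was near its control level at low stretch (57.3 ± 12.2 CPM, SD, n = 3, unstretched and 51.9 ± 7.2 CPM, n = 6, stretched; log2 fold change -0.15 ± 0.13) and changed by -0.70 ± 0.30 at high stretch, not called.

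Oasl2, of the oligoadenylate synthetase family that senses double-stranded RNA, gave 0.224, 0.245 and 0.214 CPM unstretched and from 0.0416 to 0.131 CPM (median 0.0867) at low stretch. In experiment 2 it gave 0.406, 0.244 and 0.502 CPM unstretched and 0.0931, 0.078 and 0.113 CPM at high stretch. No stretched sample reached a control in either experiment, and the gene fell in both, with log2 fold changes of -1.41 ± 0.33 (adjusted p = 0.0341) and -2.0 ± 0.38 (adjusted p = 0.0311). The call was lost without any one of the 3 unstretched samples or low-stretch replicate 4 of experiment 1 (adjusted p up to 0.115), and without unstretched replicate 1 or any high-stretch sample of experiment 2 (up to 0.155). From the transcript TPM, as log2(TPM + 0.1), a scale that understates changes of low genes, both calls were lost (-0.66, adjusted p = 0.0798, and -1.14, adjusted p = 0.156). Oas1a, Oas2 and Oasl1 had at most 5 counts in any sample and entered no fit; Oas1a also shares 40.9% of its windows with Oas1g.

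None of the other antiviral effectors was called by edgeR in the main stretch comparisons, which used all samples of an experiment and no block. Rsad2 (viperin), which makes a chain-terminating nucleotide, averaged 0.145 CPM unstretched and 0.0511 CPM at low stretch (-1.52 ± 0.54, adjusted p = 0.122; 0.00348 with the run block), and 0.0654 CPM against 0.0202 CPM in experiment 2, where it was too low for a test although its groups did not overlap. Mx2, a dynamin-like GTPase, changed by -0.78 ± 0.32 (adjusted p with the run block 0.00672) and -0.98 ± 0.52, neither called. Bst2 (tetherin), which holds budding virions at the cell surface, measured 7.73, 8.53 and 7.16 CPM unstretched and from 4.57 to 7.56 CPM (median 5.04) at low stretch. Its log2 fold changes of -0.52 ± 0.16 (adjusted p = 0.0862, or 0.00266 with the run block) and -0.64 ± 0.24 (adjusted p = 0.244) were not called. The low-stretch change was called by edgeR without low-stretch replicate 3 (adjusted p = 0.0181). From the transcript TPM it was -0.63 (adjusted p = 0.025 by limma). Mx1 had at most 3 counts in any sample and entered no fit.

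Isg15, the ubiquitin-like modifier, was close to its control level at low stretch: it measured 1.83, 2.09 and 1.62 CPM unstretched and from 1.7 to 2.01 CPM (median 1.85) stretched, with an SE of 0.13 around a log2 fold change that rounds to zero (adjusted p = 0.997). At high stretch its samples of 3.35, 5.15 and 3.54 CPM lay among controls of 5.06, 5.51 and 2.93 CPM (-0.14 ± 0.30). Usp18, the protease that removes ISG15 and restrains the type I receptor, changed by -0.33 ± 0.18 and -0.50 ± 0.29, not called. Ifi27, a mitochondrial protein and the second most abundant member by TPM, measured 34.6, 34 and 33.4 CPM unstretched and from 24.8 to 31.8 CPM (median 26.7) at low stretch, without overlap and without a call (-0.30 ± 0.09, adjusted p = 0.0845, or 0.00917 with the run block; -0.14 ± 0.21 at high stretch). Ifi35 (-0.07 ± 0.11 and -0.15 ± 0.33) and Xaf1, a binding partner of the apoptosis inhibitor XIAP (-0.21 ± 0.14 and -0.24 ± 0.21), were not called. Ifi44 had at most 14 counts in any sample and entered no fit.

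In antigen processing, Psmb8 and Psmb9 encode catalytic subunits of the immunoproteasome, Tap1 a subunit of the transporter that carries its peptides into the endoplasmic reticulum, and B2m the light chain of MHC class I. Psmb8 gave 1.05, 1.05 and 0.941 CPM unstretched and from 0.483 to 0.782 CPM (median 0.645) at low stretch, a log2 fold change of -0.68 ± 0.17 (adjusted p = 0.0423). The call was close to the threshold: it held without low-stretch replicate 3 or 5 and was lost without any other sample (adjusted p up to 0.151). In experiment 2 it gave 3.83, 4.98 and 2.72 CPM unstretched and 0.89, 2.4 and 1.62 CPM at high stretch (-1.22 ± 0.38, adjusted p = 0.161; 0.0013 with the run block). Psmb9 gave 1.3, 1.55 and 1.54 CPM against 0.444 to 1.01 CPM (median 0.785), and 4.45, 5.54 and 2.77 against 1.21, 2.32 and 1.81 CPM. Neither experiment showed overlap for the 2 proteasome genes, and Psmb9 was called in none (-0.98 ± 0.28, adjusted p = 0.0652; -1.24 ± 0.33, adjusted p = 0.0999), though in both with the run block (0.00146 and 0.00177).

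Tap1 measured 33, 36.1 and 37 CPM unstretched and from 16.9 to 28 CPM (median 24) at low stretch, and fell by 0.63 ± 0.14 on the log2 scale (adjusted p = 0.0308). The call held in 4 of 9 fits that left out 1 sample and was lost without any one of the unstretched samples or low-stretch replicates 2 or 4 (adjusted p up to 0.138). At high stretch its samples of 39, 63.9 and 49.7 CPM overlapped with controls of 82.8, 97.9 and 47.9 CPM (-0.56 ± 0.29, adjusted p = 0.444). B2m was the most abundant member, at 279, 252 and 278 CPM unstretched and 287 to 338 CPM (median 301) at low stretch. All low-stretch samples of B2m were above the controls, by a small log2 difference of 0.19 ± 0.08 (adjusted p = 0.169; 0.0391 with the run block), whereas at high stretch the means were 285 and 282 CPM. Cxcl10, a chemokine that draws T cells, changed by -0.94 ± 0.42 (adjusted p = 0.213) and -1.28 ± 0.28 (adjusted p = 0.0517), with the run block at 0.0188 and 0.0142. Its high-stretch samples of 0.198, 0.177 and 0.21 CPM lay below controls of 0.393, 0.518 and 0.535 CPM, and its low-stretch samples of 0.0938 to 0.341 CPM (median 0.173) overlapped with 0.201, 0.508 and 0.443 CPM.

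**Figure D3:**
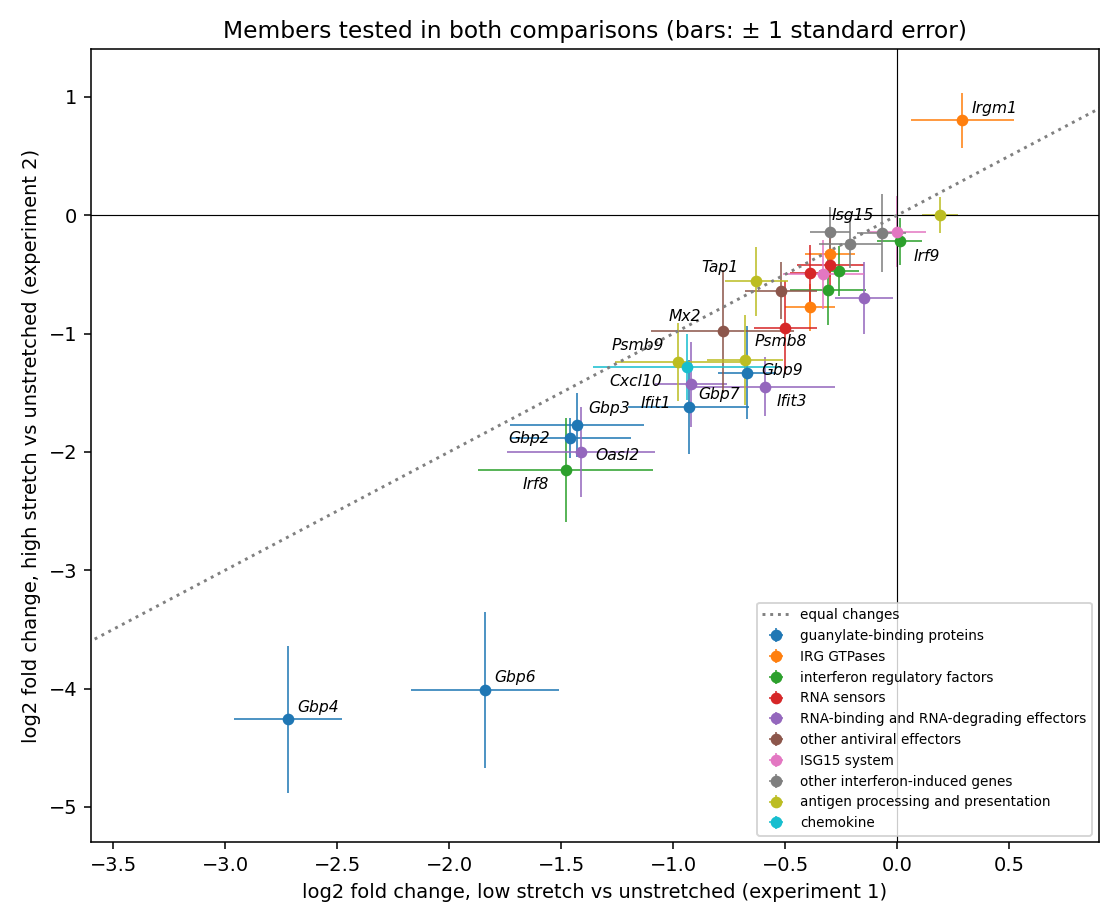
Log2 fold change at low stretch (horizontal) and high stretch (vertical) of the 32 genes tested in both experiments, coloured by role, with bars of 1 SE and a dotted line of equal changes. Most points lie in the lower left below the dotted line, with Gbp4 and Gbp6 lowest at -4.26 and -4.01 on the vertical axis, and Irgm1 above 0 on both axes.

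Of the 29 members lower in both experiments, 27 had the larger fall at high stretch, against 71.8% of all genes that were lower in both. When the high-stretch effect was tested against the low-stretch effect, edgeR called none of the 34 members tested, nor any other gene (0%), and DESeq2 called none either. There were 2 members with an unadjusted p under 0.05, Gbp6 (difference in log2 fold change -2.21 ± 0.77) and Gbp4 (-1.60 ± 0.63), both with an adjusted p of 1. From the transcript TPM these differences had the opposite sign, 0.38 for Gbp6 and 0.56 for Gbp4. Unstretched cells of experiment 2 held only 0.176 TPM of Gbp4 and 0.196 TPM of Gbp6. On log2(TPM + 0.1) the fall that could show from there was limited, so these signs decide nothing. Amplitude and experiment are the same split, so they cannot be told apart in this difference.

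Position codes in the sample descriptions form an unbroken series. It was cut here before each unstretched sample into 6 runs of neighbouring codes, 3 per experiment. The labels name no such runs. In experiment 1 the samples of a run deviated from their group means together, with correlations over genes of 0.518 to 0.801 in the 6 pairs of an unstretched and a stretched sample. In experiment 2 the 3 such pairs ran from -0.542 to 0.844, and the 6 pairs of different runs from -0.884 to 0.782. Runs were thus not shown to pair samples in experiment 2. Within the runs of experiment 1, 32, 30 and 30 of the 34 members were lower in stretched samples, and in those of experiment 2 31, 29 and 26 of 32. Counting members that were lower in every run of an experiment gave 29 of 34 in experiment 1 and 24 of 32 in experiment 2. The share of all genes was not computed for these counts within runs. With the runs as a block, edgeR called 24 members lower and 1 higher (B2m) at low stretch, where 14.5% of all genes were called lower and 13.7% higher (28.2% in all). At high stretch it called 14 lower and 1 higher (Irgm1), where 5.03% of all genes were called lower and 3.31% higher.

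**Figure D4:**
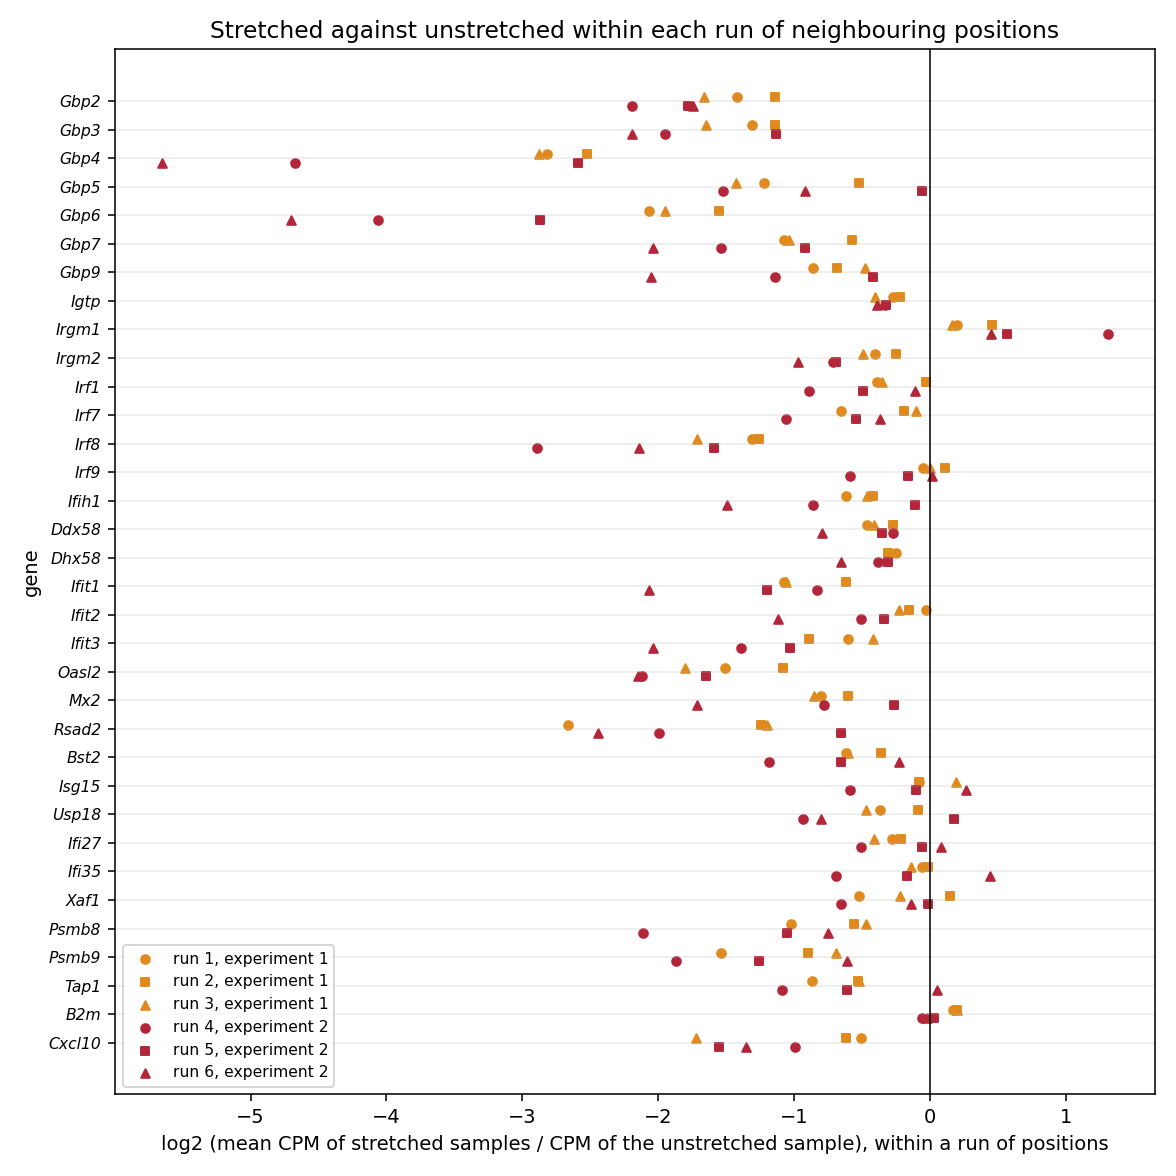
Log2 ratio of the mean stretched CPM to the unstretched CPM within each run of neighbouring positions (horizontal axis), for the 34 genes in rows; orange marks the 3 runs of experiment 1 and red those of experiment 2. All 6 marks of Gbp2, Gbp3, Gbp4, Gbp6, Irf8 and Oasl2 lie at -1.08 or lower, and all 6 of Irgm1 lie above 0.

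The levels from which the members started differed between the experiments. In unstretched cells 19 of 34 members differed between experiments 2 and 1, 8 lower and 11 higher in experiment 2, against 62.5% of all genes (32.7% lower and 29.7% higher), so these genes did not stand out from the rest. A log2 fold change below 0 was seen in 15 members (51.7% of all genes); samples were without overlap in 8 that were lower (37.7% of all genes) and 13 that were higher (35.2%). All 4 interferon regulatory factors were higher in experiment 2, from 0.69 ± 0.19 for Irf9 to 2.06 ± 0.43 for Irf8 (adjusted p of 0.0151 and 0.00579), as were Psmb8 (1.91 ± 0.28), Psmb9 (1.52 ± 0.29), Tap1 (1.09 ± 0.26), Ifi35 (1.33 ± 0.28), Isg15 (1.27 ± 0.29), Bst2 (1.17 ± 0.19) and Ifi27 (0.79 ± 0.19, but -0.00022 from TPM). By contrast 5 GBPs were lower, Gbp9 (-1.93 ± 0.36), Gbp7 (-1.91 ± 0.43), Gbp6 (-1.57 ± 0.47), Gbp4 (-1.34 ± 0.37) and Gbp3 (-1.17 ± 0.35), and so were Ifit2 (-1.99 ± 0.29), Ifih1 (-1.63 ± 0.37) and Ifit3 (-0.65 ± 0.24). From the transcript TPM, whose median over all genes shifted by -0.638 in this comparison, 11 members were called lower and 6 higher. Unstretched replicate 3 of experiment 2 had the highest Gbp4, Gbp6, Gbp7, Gbp9, Ifit1, Ifit2 and Ifih1 of its group and the lowest Irf1, Irf7, Irf8, Psmb8, Psmb9 and Tap1, and 22 members were called without it. Experiment cannot be told apart from any other difference between the sets of samples.

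**Figure D5:**
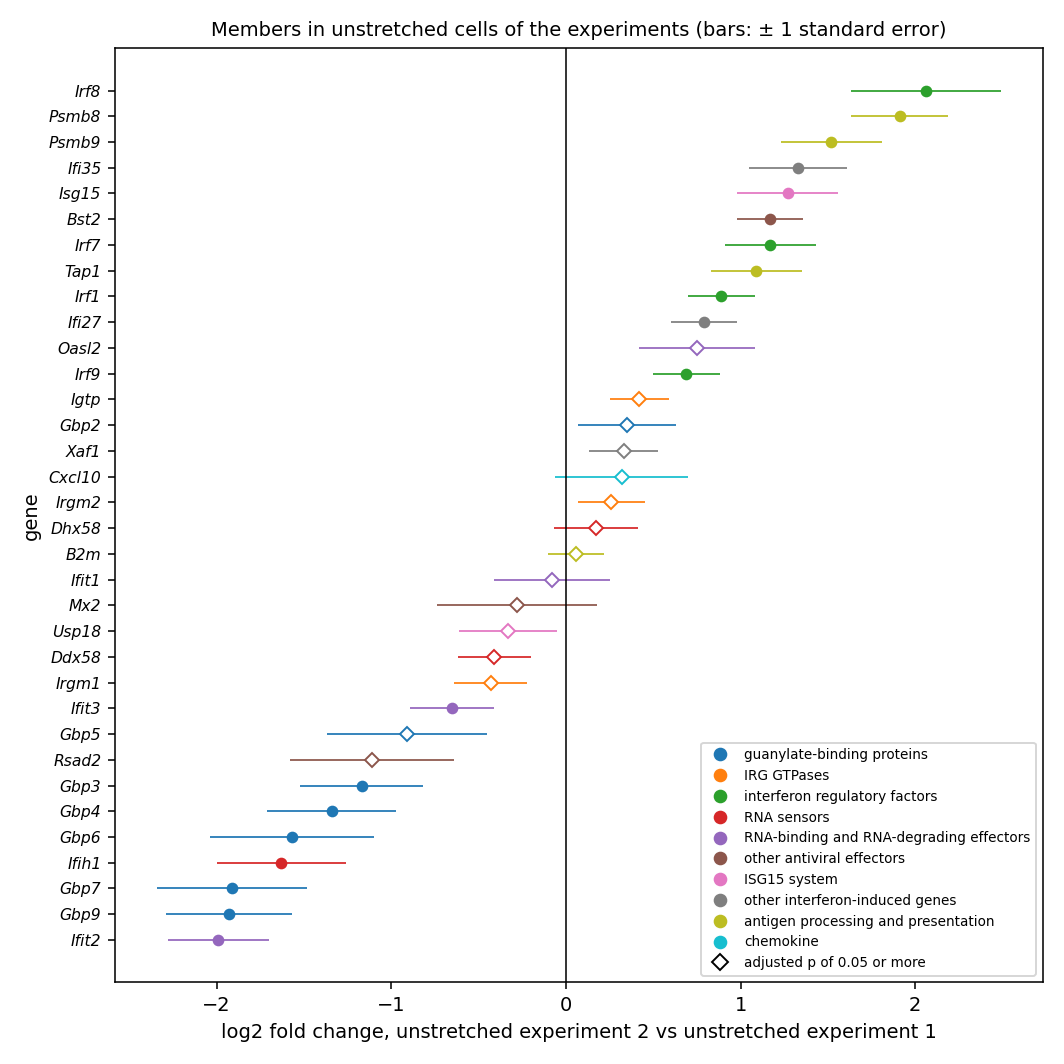
Log2 fold change of unstretched cells, experiment 2 against experiment 1 (horizontal axis, bars of 1 SE), for the 34 genes in rows, coloured by role; open diamonds did not pass the adjusted p threshold. The interferon regulatory factors (green) all lie right of 0, up to 2.06 for Irf8, and GBPs (blue) other than Gbp2 lie left of 0, down to -1.93 for Gbp9.

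On the TPM scale, levels in unstretched cells of experiment 1 spanned B2m at 789 ± 54.2 TPM (SD, n = 3), Ifi27 at 111 ± 5.28, Irgm1 at 93.5 ± 17.9 and Gbp2 at 35.9 ± 15.3 TPM. Ifit2 (32.5 ± 6.41), Ifit3 (25.7 ± 7.68), Tap1 (25.6 ± 1.65), Irf1 (25.3 ± 1.99), Bst2 (24.9 ± 2.13) and Ifi35 (24 ± 1.48 TPM) followed within their spread of each other. Gbp4, Gbp6 and Ifit1 stood at 0.582, 0.762 and 0.489 TPM, and the 5 members that entered no fit at 0.0282 TPM or less. In 19 members with at least 1 TPM in every group, the share of TPM from the leading transcript changed by -5.1 to 5.1 percentage points at low stretch and by -3.6 to 3.7 at high stretch. Usp18 was below that level; its leading transcript (ENSMUST00000032198) held 30.1% ± 5.6 of its TPM in unstretched cells of experiment 1 and 75.2% ± 11 in those of experiment 2.

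Of 10 interferon ligand genes listed, 7 had no count in any sample, including Ifng and the Ifna genes, where 3 counts in the shallowest library would be 0.0174 CPM. Ifnb1 reached 2 counts, Ifnk 3 and Ifne 15. Beside the calls in the following lists stand 5.45% of all genes called at low stretch and 3.47% at high stretch. Called lower were 3.6% and 2.16%, and called higher 1.85% and 1.31%. Calls of 1 or 2 genes in a list are given as descriptions. Among 15 tested genes of the receptors, JAK kinases, STATs and inhibitors, 1 was called at each amplitude and in the same direction: Socs3, a feedback inhibitor of cytokine receptors that IL-6 family cytokines also induce, fell by 1.12 ± 0.26 (adjusted p = 0.0352) and 1.68 ± 0.28 (adjusted p = 0.021) on the log2 scale. Ifnar1 (-0.04 ± 0.06 and -0.08 ± 0.16), Ifngr1 (0.27 ± 0.18 and 0.35 ± 0.24), Jak1 (0.22 ± 0.06 and 0.20 ± 0.19), Jak2 (0.20 ± 0.12 and -0.04 ± 0.36) and Stat2 (-0.18 ± 0.07 and -0.34 ± 0.16) were not called. Of 13 genes of nucleic acid sensing tested at low stretch, Ikbke fell (-0.36 ± 0.09, adjusted p = 0.0435); of 11 tested at high stretch none was called in either direction by edgeR, and none had an unadjusted p under 0.05.

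Other interferon-stimulated genes outside the 39 were mostly lower too. Of 35 tested at low stretch, 28 were lower and 5 called lower (3.6% of all genes). These were Ifi203 (-1.58 ± 0.21, adjusted p = 0.00507), Oas1b, Oas1c, Ifi204 and Irf2. Of 29 tested at high stretch, 24 were lower and 2 called lower (2.16% of all genes). These were Cmpk2 (-2.42 ± 0.26, adjusted p = 0.00592), the neighbour of Rsad2, and Ifit3b. In a list of genes that interferon-gamma induces strongly, 13 of 13 were lower at low stretch with 3 called (Gbp8, Gbp10 and the IRG gene Ifi47), and 11 of 12 at high stretch with 2 called (the IRG gene Iigp1 at -3.62 ± 0.51, adjusted p = 0.013, and H2-Eb1, adjusted p = 0.0498). Of 17 MHC class I presentation genes, 15 were lower at low stretch with H2-K1, H2-Q7 and Tapbp called, and 14 at high stretch with none called by edgeR and 7 at an unadjusted p under 0.05. Of 9 NF-kB target genes tested, 1 was called at each amplitude, the feedback inhibitor Tnfaip3 (A20), which rose by 1.37 ± 0.35 (adjusted p = 0.0473) and 2.09 ± 0.24 (adjusted p = 0.00641).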

How the data were processed

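Poly(A) RNA was read as stranded paired-end libraries, per the labels' protocols. The authors deposited raw counts per gene and TPM values per transcript. The submitters' processing notes name STAR 2.7.5c, featureCounts, Subread 2.0.0, Salmon 1.9.0, DESeq2 1.38.3 and the build mm39. The annotation and the strand setting of the counting are not given in the sources used here, so reads of overlapping and antisense genes may be shared. Totals ran from 172.2 to 396.7 M (megacounts) per sample.

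Groups came from the sample titles. Genes were tested on the counts with edgeR 4.0.16 in R 4.3.3 (TMM, filterByExpr, quasi-likelihood F test, Benjamini-Hochberg adjustment at 0.05), each stretched group only with controls from the same experiment. Low- and high-stretch effects were set against each other by an interaction contrast in 1 fit of 15 samples, and the SE was the log2 fold change over the square root of F. Symbols and links of 137189 of 140789 transcripts to genes came from GENCODE M21. Gene TPM was summed over transcripts and tested as log2(TPM + 0.1) with limma 3.58.1, at a mean of 0.1 TPM or more. Sharing between paralogs was the percent of 100-base windows of a gene's transcripts that another gene's transcripts also hold. Alternatives were DESeq2 1.42.0, RLE size factors, no filter, a mean count of at least 100, replicate and position-run blocks, 1 fit of all 15 samples, gene TPM, and leaving out each sample. Fits without a position run were added after seeing the data.

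On simulated counts, edgeR recovered 57% of log2 changes of 1 and 96% of changes of 2 at low stretch (21380 genes), 21% and 92% at high stretch (18246 genes), and 23% and 77% for the difference (21654 genes). The members, gene lists and tests were chosen with earlier results of these data known. Genes described sample by sample are those called in a stretch comparison or without overlap in both, and 1 more per role, the one with the highest mean CPM. A few marker and signalling genes of the lists are not reported here by name.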

Additional observations from a re-analysis of the deposited data

How the results depend on the processing

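The members' median change stayed below 0 at either amplitude in every alternative run, while the number called moved. At low stretch, 10 members were called with edgeR, 18 with DESeq2, 25 with the position-run block, 6 with all 15 samples in 1 fit, and 1, 1 and 6 without position runs 1, 2 and 3. Leaving out 1 sample gave 1 to 13. At high stretch the 7 became 15 with DESeq2, 15 with the replicate block or the identical position-run block, 13 with all 15 samples, 11 without a filter, 4 with a mean count of at least 100 and 2 with gene TPM, and 0 to 12 when 1 sample was left out. The replicate block at low stretch, which drops low-stretch replicates 4 to 6, called 7. Replicate numbers were not shown to pair the samples. Deviations of same-numbered samples correlated at -0.637 to 0.518 in experiment 1 and -0.542 to 0.844 in experiment 2. In experiment 2 the same pairs make up the runs, so this holds for the run block there too. The difference between stretch effects called 0 members in each alternative, and the unstretched comparison 14 to 22. Over all genes, the 1181 called at low stretch became 2837 with DESeq2 (1523 lower, 1314 higher, against 781 and 400), 490 with the replicate block, 6106 with the position-run block and 640 with all 15 samples. Gene TPM split its low-stretch calls as 908 lower and 149 higher around a median of -0.134. The 643 at high stretch became 1403 with DESeq2, 1050 without a filter, 414 with a mean count of at least 100, 1546 with either block, 1488 with all 15 samples and 366 with gene TPM, and the difference called 3 genes with the position-run block. Counts of single digits limit what can be said of Gbp4 and Gbp6 at high stretch.

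Every sign that turned was that of an uncalled value, except Ifi27 between unstretched groups (0.79, called), and the cause was not tested. At low stretch Isg15 became 0.01 with DESeq2, RLE, no filter and all 15 samples, 0.00436 with the position-run block, and 0.03 and 0.06 without position runs 1 and 2. Irf9 became -0.01 with a mean count of 100, -0.00327 with the replicate block, -0.11 with TPM and -0.02 without run 2, and Ifi35 0.04 with the replicate block. With 1 sample left out, Isg15 ranged from -0.10 to 0.11, Irf9 from -0.07 to 0.07 and Ifit2 from -0.26 to 0.02. At high stretch B2m became -0.02 with all 15 samples and -0.09 with TPM; with 1 sample left out B2m ranged from -0.03 to 0.05, Isg15 from -0.35 to 0.04 and Ifi35 from -0.39 to 0.13. For the difference, the replicate block gave Xaf1 0.03, Rsad2 0.71 and Mx2 0.07, and TPM gave Xaf1 0.07, Gbp4 0.56 and Gbp6 0.38. For Gbp4 and Gbp6 the TPM scale limits the fall that can show at high stretch. Its ranges with 1 sample left out were -0.26 to 0.04 for Bst2, -0.24 to 0.18 for Ddx58, -0.15 to 0.59 for Gbp5, -0.04 to 0.25 for Ifi27, -0.38 to 0.17 for Ifi35, -0.77 to 0.12 for Ifih1, -0.12 to 0.07 for Igtp, -0.65 to 0.27 for Mx2, -0.72 to 0.09 for Rsad2, -0.16 to 0.26 for Tap1 and -0.13 to 0.08 for Xaf1. Between unstretched groups, TPM gave Dhx58 -0.45, Gbp2 -0.14, Xaf1 -0.14, B2m -0.51 (adjusted p = 0.0493), Ifi27 -0.00022, Irgm2 -0.30 and Igtp -0.11 around a median of -0.638, a mean count of 100 gave B2m -0.07, and leaving out 1 sample gave Mx2 -0.75 to 0.10 and Ifit1 -0.54 to 0.13.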
